A study of Mus musculus with 6 samples.

Results

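Cytochrome P450 genes of families 1 to 4 were examined in the small intestinal epithelium of aged and young mice. Genes were taken by name, where the symbol was Cyp, a family number from 1 to 4, a subfamily letter and a gene number. Symbols with a further ending, such as Cyp3a41a, were not taken, and 3 Cyp4a genes were set aside by name. This gave 72 genes of the 46078 in the count table, of which 3 belonged to Cyp1, 48 to Cyp2, 7 to Cyp3 and 14 to Cyp4. RNA of epithelial cells was sequenced from 3 aged mice, 20 to 22 months old, and from 3 young mice, 2 to 3 months old. All 6 mice were untreated and of the strain C57BL/6JRj, and their sex is not given in the labels. Cells were freed from the small intestine with EDTA and trypsin and sorted as positive for the epithelial adhesion molecule EpCam and negative for the leukocyte protein CD45. The series names the proximal small intestine and 3 mice of each age, so each library was taken as 1 mouse. The single comparison asks how the level of each P450 transcript in aged epithelium differs from that in young epithelium.

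Cytochromes P450 are haem proteins of the endoplasmic reticulum that insert an oxygen atom into their substrates, using electrons passed on by P450 reductase (Por) and, for some reactions, cytochrome b5. Enzymes of families 1 to 3 act mainly on drugs, food constituents and other foreign compounds, and their genes answer to ligand-activated factors such as the aryl hydrocarbon receptor for Cyp1a1, the constitutive androstane receptor for Cyp2b10 and the pregnane X receptor for Cyp3a11. Family 4 enzymes hydroxylate the end of fatty acid and eicosanoid chains, and several Cyp2c and Cyp2j enzymes turn arachidonic acid into epoxides. The gut epithelium is the first tissue to meet swallowed compounds, and its absorptive enterocytes carry most of its P450 protein.

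Most of these genes lie in arrays of close copies, and a few promoter sequences show how alike the copies are. RefSeq windows from 250 bases before to 50 bases after the gene start (GRCm38.p6) were at hand for 62 of the 72 genes. The letters CAAAGTCCA, which match the binding site of the enterocyte and liver factor HNF4 and were searched on both strands, stood in 8 of these 62 windows (12.9%) and in 150 of 27025 windows of all genes (0.555%). All 8 belonged to the Cyp2c or Cyp3a arrays, so these windows are not independent of one another. The letters were also chosen after windows had been seen, so these shares only describe the windows. The windows of Cyp2c65 (chr19:39060756-39061055, plus strand) and Cyp3a11 (chr5:145879805-145880104, minus strand) are shown as an example from each array, read 5′ to 3′ on the gene's strand with the HNF4 letters in capitals.
Cyp2c65: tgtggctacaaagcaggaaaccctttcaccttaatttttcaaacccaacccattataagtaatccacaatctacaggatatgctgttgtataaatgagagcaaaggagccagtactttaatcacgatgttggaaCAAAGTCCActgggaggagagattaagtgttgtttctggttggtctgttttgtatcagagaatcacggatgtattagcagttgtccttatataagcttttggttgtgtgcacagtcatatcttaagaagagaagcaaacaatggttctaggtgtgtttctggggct
Cyp3a11: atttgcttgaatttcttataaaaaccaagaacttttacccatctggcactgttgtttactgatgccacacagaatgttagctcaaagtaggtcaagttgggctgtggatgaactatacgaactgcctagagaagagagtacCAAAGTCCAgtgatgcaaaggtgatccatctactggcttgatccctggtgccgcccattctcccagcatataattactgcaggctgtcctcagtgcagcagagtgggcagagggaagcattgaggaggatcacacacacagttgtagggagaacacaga

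The stretch around the same letters is shown for the other 6 genes, again on the gene's strand and with the letters in capitals, to set genes with enough counts for a test beside copies without. Cyp2c68 (chr19:39741154-39741194) and Cyp2c70 (chr19:40187326-40187366) were tested, and Cyp2c67 (chr19:39649143-39649183), Cyp2c40 (chr19:39812835-39812875), Cyp2c69 (chr19:39886820-39886860) and Cyp3a16 (chr5:145469798-145469838) were too low to test.
Cyp2c68: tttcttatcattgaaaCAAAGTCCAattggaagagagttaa
Cyp2c70: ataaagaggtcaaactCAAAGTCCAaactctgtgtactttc
Cyp2c67: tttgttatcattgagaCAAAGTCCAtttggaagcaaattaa
Cyp2c40: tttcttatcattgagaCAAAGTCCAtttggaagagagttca
Cyp2c69: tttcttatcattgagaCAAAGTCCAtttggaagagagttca
Cyp3a16: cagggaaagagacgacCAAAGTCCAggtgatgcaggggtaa
The letters stood in 4 of 30 windows of tested P450 genes (13.3%) and in 4 of 32 windows of those not tested (12.5%), so they were about as frequent in tested copies as in untested ones. The letters TATAAA, read on the gene's strand, were in 32.3% of the P450 windows and 9.77% of all windows. The nuclear receptor letters AGGTCA, on both strands, were in 30.6% of the P450 windows and 18.1% of all windows. The aryl hydrocarbon receptor letters GCGTG, on both strands, were in 21% of the P450 windows and 35.2% of all windows, and in 10 of the 30 windows of tested P450 genes, Cyp1a1 and Cyp2w1 among them. None of these letter runs contains another, and a match is a description of the sequence only.

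Of the 72 genes, 34 had enough counts to be tested, 7 exceeded 3 counts in some library but were too low to test, 15 reached 1 to 3 counts at most and 16 had 0 counts in all 6 libraries. Library totals were between 41479573 and 58989166 counts, at which a count of 0 allows up to 3 counts, or 0.0509 to 0.0723 CPM (counts scaled to a common library size) depending on the library. That limit covers counting error only, not the split of reads between copies that share sequence. Of the 75-base stretches of Cyp2c40, Cyp2c69 and Cyp2c67, 45.9%, 42.6% and 36% also occur in transcripts of other P450 genes. The split of reads is uncertain for these low genes. For Cyp2g1, Cyp2j7 and Cyp4x1 that share was 0%. The tested genes were 1 of 3 in Cyp1, 19 of 48 in Cyp2, 4 of 7 in Cyp3 and 10 of 14 in Cyp4. The 16 genes at 0 were Cyp2a4, Cyp2a5, Cyp2a22, Cyp2b19, Cyp2b23, Cyp2c37, Cyp2c39, Cyp2c40, Cyp2c50, Cyp2c69, Cyp2d12, Cyp2d40, Cyp2g1, Cyp2j7, Cyp4a29 and Cyp4x1. With 1 to 3 counts at most stood Cyp1b1, Cyp2a12, Cyp2b9, Cyp2b13, Cyp2c54, Cyp2d9, Cyp2d11, Cyp2d34, Cyp2j11, Cyp2j13, Cyp2t4, Cyp3a16, Cyp3a44, Cyp3a57 and Cyp4f18. Above 3 counts but untested were Cyp1a2, Cyp2c38, Cyp2c67, Cyp2d10, Cyp2j8, Cyp2j12 and Cyp4f37.

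Detection was uneven along each array. In the Cyp4f array (chr17:32452723-32947402), 7 of 8 genes were tested. In the Cyp2c array (chr19:39007019-40187333) it was 6 of 14, in the Cyp3a array (chr5:145345279-146113287) 3 of 6 and in the Cyp2j array (chr4:96027534-96664154) 3 of 8. In the Cyp2d array (chr15:82370527-82794294) only the outermost genes, Cyp2d22 and Cyp2d26, were tested among 8. The array on chromosome 7 that holds Cyp2a, Cyp2b, Cyp2f, Cyp2g, Cyp2s and Cyp2t genes (chr7:25802475-27158668) had 3 tested genes of 13, namely Cyp2s1, Cyp2b10 and Cyp2f2. Of the 72 genes, those within 1 Mb of each other were joined into an array, so other gene copies within it are not counted. Positions are on GRCm38.

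**Figure D1:**
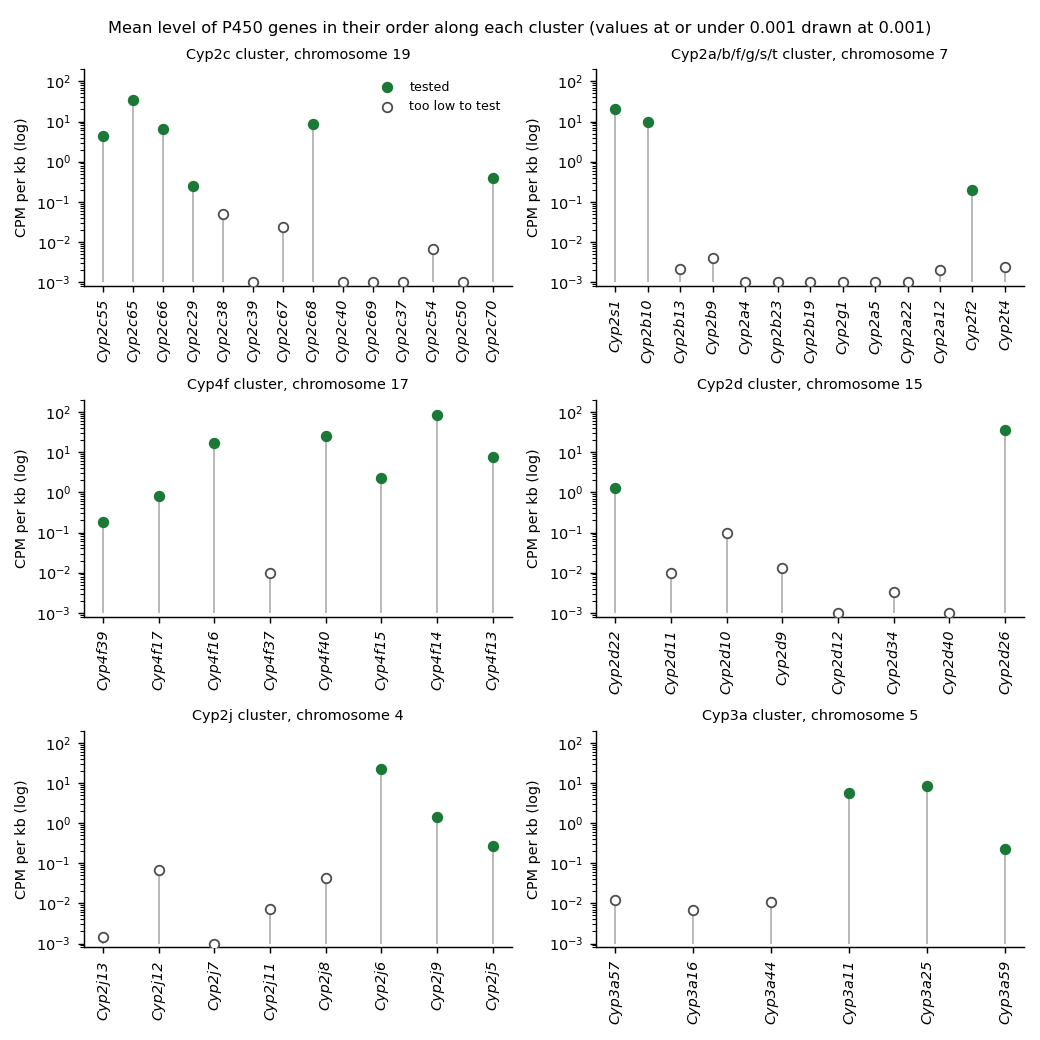
Mean level over all 6 libraries, in CPM per kilobase of exon on a log axis, of the P450 genes in 6 arrays, in their order along the chromosome. Filled points were tested and open points were too low to test, with genes at 0 drawn at the bottom, so that 7 of 8 Cyp4f genes are filled against 2 of 8 Cyp2d genes.

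Levels of different genes were compared per length, as CPM per kilobase of exon averaged over the 6 libraries. Cyp4f14, an omega-hydroxylase of leukotriene B4 and vitamin E side chains, was the most abundant at 87.2 CPM per kb. It averaged 86.2 ± 15.0 CPM per kb in aged libraries and 88.2 ± 9.63 CPM per kb in young libraries (SD, n = 3 each). After it came Cyp2d26 at 35.5, Cyp2c65 at 34.4, Cyp4f40 at 25.8, Cyp3a13 at 23.7, Cyp2j6 at 22.9, Cyp4v3 at 21.6, Cyp2s1 at 20.3 and Cyp4f16 at 17.4 CPM per kb. Cyp2b10 at 9.82, Cyp2c68 at 8.57 and Cyp3a25 at 8.26 CPM per kb closed the 12 most abundant. Cyp4f14 stood above Cyp2d26 in every library. From Cyp2d26 down, neighbours among the 12 overlapped within their SD in both groups, except for the pairs Cyp2c65 with Cyp4f40 and Cyp4f16 with Cyp2b10 in aged libraries. With the longest transcript in place of the union of exons, 10 of the 12 were shared. The lowest tested gene was Cyp4f39 at 0.178 CPM per kb.

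**Figure D2:**
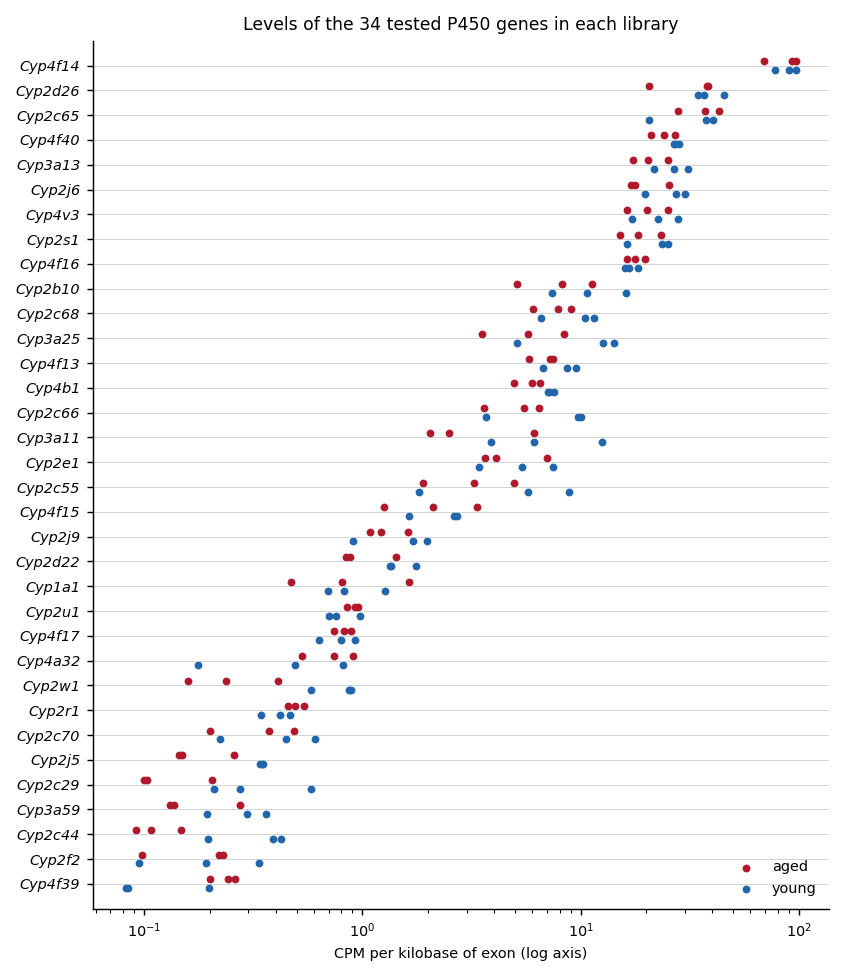
Level of the 34 tested P450 genes in each library, in CPM per kilobase of exon on a log axis, with aged libraries in red and young libraries in blue. For each of the 12 genes at the top the red and blue points overlap, from Cyp4f14 at 87.2 to Cyp3a25 at 8.26 CPM per kb on average.

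In each age group 1 library stood apart in these genes. Aged replicate 2 was the lowest of the aged libraries in 27 of the 34 tested P450 genes (79.4%), against 29.0% of all 14923 genes tested. Young replicate 2 was the lowest of the young libraries also in 27 of the 34 (79.4%), against 40% of all genes. Among the 12 most abundant, each was lowest in 11. Summed over all 72 genes, the aged libraries held 989.9, 731 and 1033 CPM and the young libraries 1229, 836 and 1105 CPM. Beside this, the summed level of 15 absorptive enterocyte markers was 7034, 4888 and 7006 CPM in aged libraries and 8076, 6444 and 6246 CPM in young libraries. In aged libraries the markers were lowest where the P450 sum was lowest, while in young libraries replicate 3 had the lowest marker sum. Single markers differed in which young library was lowest. Apoa4, at 744.9, 752.2 and 332.1 CPM in young libraries, was lowest in replicate 3. Alpi, at 779.2, 536.6 and 623.6 CPM, and Sis, at 913.4, 644.1 and 744.9 CPM, were lowest in young replicate 2, as the P450 sum was. The part of enterocyte content in the P450 values was not tested. In bulk libraries fewer cells of a type and less RNA per cell cannot be told apart. With both libraries numbered 2 left out, no P450 gene passed the test and the median log2 fold change over those tested was -0.27, against -0.25 with all libraries. The labels carry no replicate numbers, so each group was counted through as its samples are listed. Young and aged samples alternate in that listing, which makes the libraries numbered 2 neighbours. Whether these 2 libraries shared a step of preparation was not tested.

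**Figure D3:**
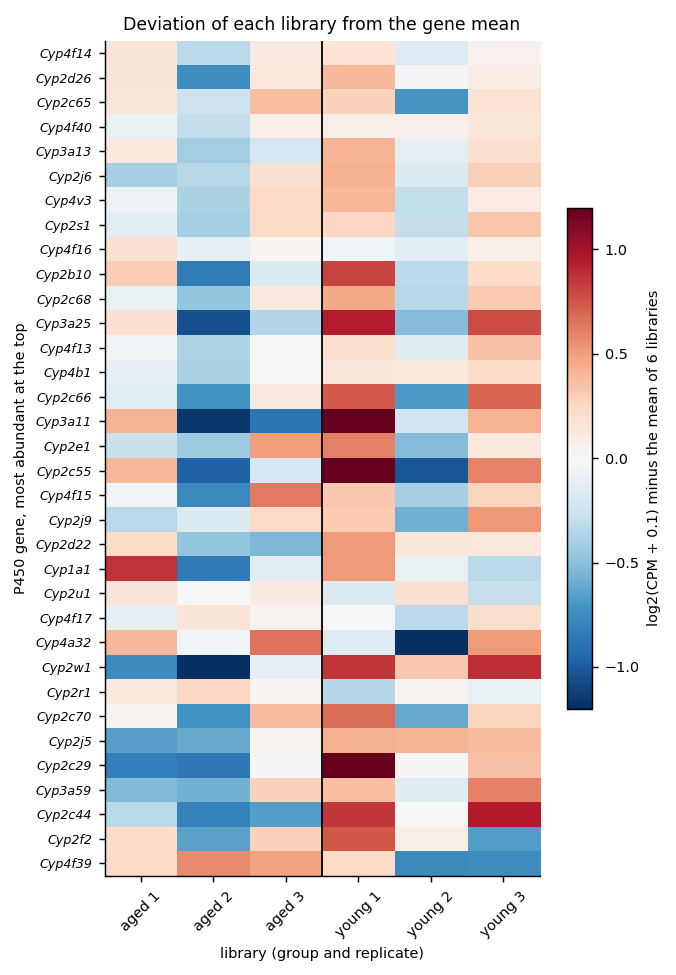
Deviation of each library from the mean of the 6 libraries, as log2(CPM + 0.1), for the 34 tested P450 genes ordered by level, where colours stop at the ends of the bar. The column of aged replicate 2 is the lowest aged value in 27 genes and that of young replicate 2 the lowest young value in 27 genes.

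None of the 34 tested P450 genes passed the test for a difference with age. Of the 34 tested, 0 stood higher and 0 lower with age at an adjusted p under 0.05 (quasi-likelihood test of edgeR, adjusted by Benjamini-Hochberg over all genes), where 0.623% of all 14923 genes were called higher and 0.784% lower. At an unadjusted p under 0.05, 1 lay higher (3.9% of all genes) and 5 lay lower (5.33% of all genes). The lowest adjusted p was 0.118. The median log2 fold change, aged minus young, was -0.25 over the 34 genes and 0.01 over all genes, and 26 of the 34 (76.5%) lay below 0 against 48.2% of all genes. By family the median was -0.31 in the 19 tested Cyp2 genes, -0.73 in the 4 Cyp3 genes and -0.04 in the 10 Cyp4 genes. Without single libraries the median over P450 genes was between -0.41 and -0.14. The median standard error was 0.30 over the P450 genes, against 0.12 over all genes, and 0.20 over the 12 most abundant. The libraries were separate mice as far as the series states.

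**Figure D4:**
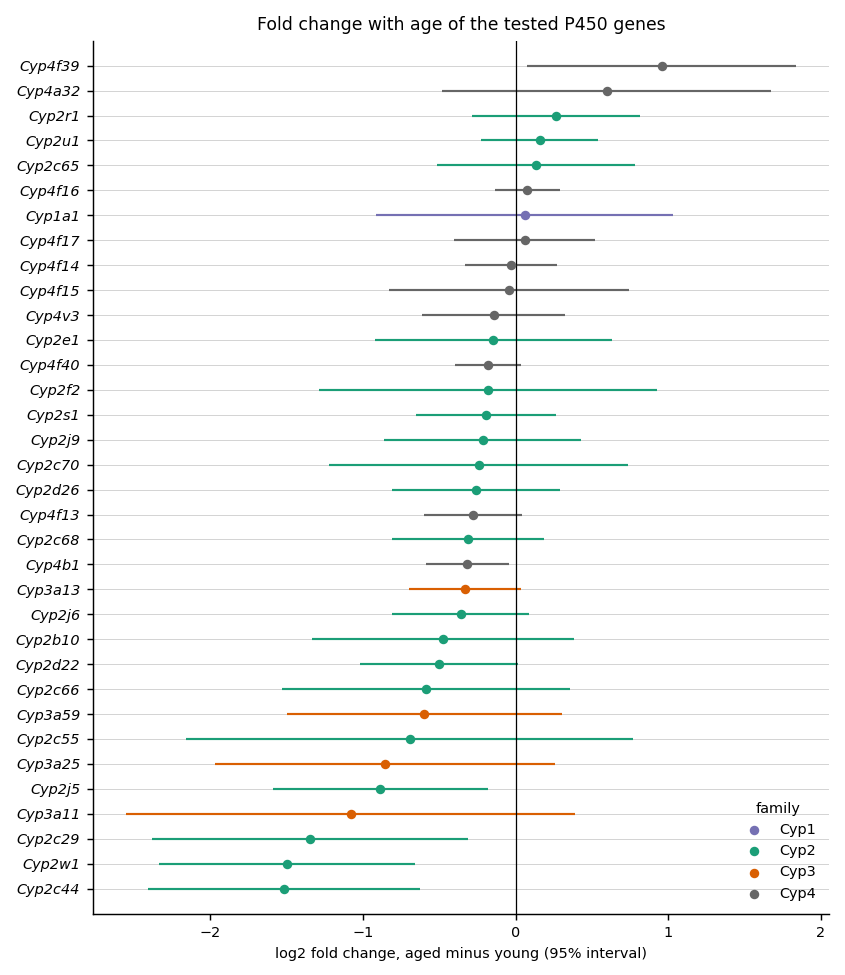
Log2 fold change, aged minus young, of the 34 tested P450 genes with the 95% interval, coloured by family. The points run from 0.96 for Cyp4f39 to -1.52 for Cyp2c44, 26 of them lie below 0, and no gene has an adjusted p under 0.05.

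Cyp1 transcripts were sparse. Cyp1a1, a classical target of the aryl hydrocarbon receptor that oxidises polycyclic aromatics, stood at 4.56, 1.32 and 2.25 CPM in aged libraries and at 3.55, 2.30 and 1.94 CPM in young libraries. The highest and the lowest value were both aged, and the groups overlapped. Its log2 fold change was 0.06 ± 0.43 (SE; 95% interval -0.91 to 1.03; edgeR adjusted p = 0.987). Cyp1a2, chiefly a liver enzyme, had 6, 0 and 4 counts in aged libraries and 1, 0 and 1 counts in young libraries. Cyp1b1, mostly found outside the liver, had 0 counts in all aged libraries and 1 count in all young libraries together. Neither could be tested.

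In Cyp2, 4 of the 19 tested genes, all at low levels, had every aged library below every young one, where 7.49% of all genes did. Cyp2w1, whose human counterpart is known from fetal colon and colon tumours, stood at 0.359, 0.241 and 0.624 CPM in aged libraries and at 1.32, 0.879 and 1.34 CPM in young libraries. The highest aged library thus lay below the lowest young one, and the log2 fold change was -1.5 ± 0.37 (SE; 95% interval -2.34 to -0.66; edgeR adjusted p = 0.118). DESeq2 called it lower (adjusted p = 0.0195), where that test called 1.67% of its 17108 genes lower. It was also called without aged replicate 3 (edgeR adjusted p = 0.0437), where 135 of all genes were called lower. Over all alternatives its adjusted p was between 0.0154 and 0.415.

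Cyp2c44, an epoxygenase of arachidonic acid, stood at 0.317, 0.197 and 0.232 CPM in aged libraries and at 0.842, 0.423 and 0.912 CPM in young libraries. All 3 aged values were below the young ones, of which replicate 2 was the lowest. The log2 fold change was -1.52 ± 0.39 (SE; 95% interval -2.41 to -0.63; edgeR adjusted p = 0.135). Without a filter on low counts, the edgeR test called both Cyp2c44 (adjusted p = 0.0441) and Cyp2w1 (adjusted p = 0.0154) lower, where 0.981% of 24973 genes were called lower. Without young replicate 2, Cyp2c44 had an edgeR adjusted p of 0.0452, where 132 of all genes were called lower. Its adjusted p over the alternatives was between 0.0441 and 0.438.

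Cyp2c29, known as a liver enzyme, stood at 0.317, 0.307 and 0.624 CPM in aged libraries and at 1.77, 0.643 and 0.840 CPM in young libraries. Its groups were separated by the small gap between aged replicate 3 and young replicate 2, and the log2 fold change was -1.35 ± 0.46 (SE; edgeR adjusted p = 0.311). Cyp2j5, an arachidonic acid epoxygenase of kidney and liver, stood at 0.338, 0.351 and 0.606 CPM in aged libraries and at 0.819, 0.812 and 0.792 CPM in young libraries. The young values were close together and all above the aged ones, with a log2 fold change of -0.89 ± 0.31 (SE; edgeR adjusted p = 0.340). Over all 34 tested P450 genes, 5 had all aged libraries below all young ones, where 7.49% of all genes did, and 1 had all aged libraries above, where 6.29% of all genes did.

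**Figure D5:**
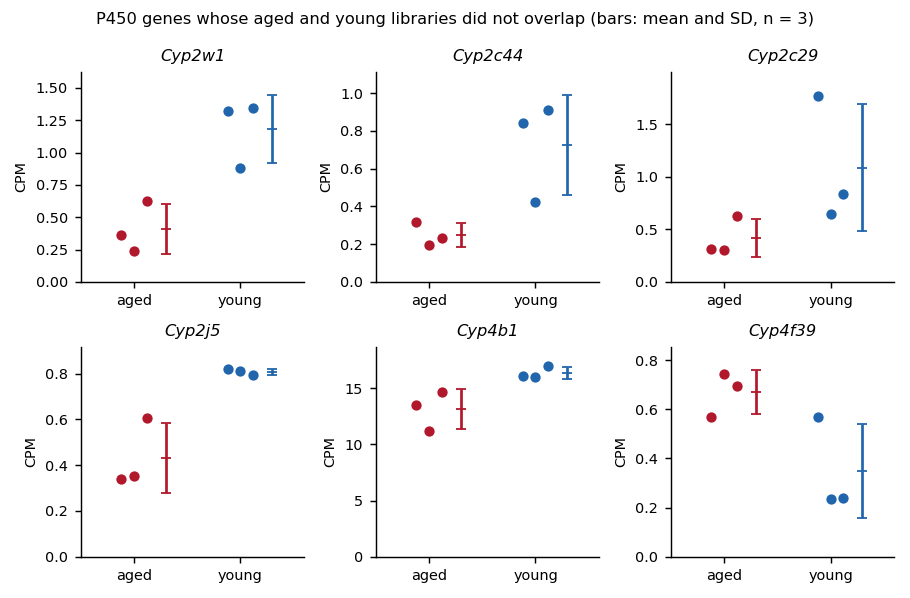
CPM in each library (points) with the mean and SD of 3 libraries (bars) for the 6 P450 genes whose aged and young libraries did not overlap. Aged libraries lie below young ones for Cyp2w1, Cyp2c44, Cyp2c29, Cyp2j5 and Cyp4b1 and above them for Cyp4f39, and none of the 6 has an edgeR adjusted p under 0.05.

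The abundant Cyp2 genes overlapped between ages. Cyp2d26, of a subfamily known for drug metabolism, stood at 69.0, 37.0 and 67.7 CPM in aged libraries and at 81.0, 61.5 and 65.7 CPM in young libraries. Aged replicate 2 was far below the other libraries, and the log2 fold change was -0.26 ± 0.24 (SE; 95% interval -0.81 to 0.29; edgeR adjusted p = 0.845). Cyp2c65, a Cyp2c gene of the gut, stood at 71.3, 54.1 and 82.9 CPM in aged libraries and at 78.2, 39.5 and 72.5 CPM in young libraries. Here young replicate 2 was the lowest of all, and the log2 fold change was 0.13 ± 0.27 (SE; 95% interval -0.52 to 0.78; edgeR adjusted p = 0.950).

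Cyp2j6, of the subfamily that oxidises arachidonic and linoleic acid, stood at 61.1, 64.0 and 91.4 CPM in aged libraries and at 108.5, 71.4 and 98.4 CPM in young libraries. Aged replicates 1 and 2 were below all young values and aged replicate 3 was among them, with a log2 fold change of -0.36 ± 0.19 (SE; 95% interval -0.81 to 0.09; edgeR adjusted p = 0.684). Cyp2s1, an enzyme of surface epithelia that is inducible through the aryl hydrocarbon receptor, stood at 90.01, 74.5 and 115.5 CPM in aged libraries and at 116.3, 80.6 and 123.8 CPM in young libraries. Replicate 2 was the lowest of both groups, and the log2 fold change was -0.19 ± 0.20 (SE; 95% interval -0.65 to 0.27; edgeR adjusted p = 0.874).

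Cyp2b10, the textbook target of the constitutive androstane receptor, stood at 23.8, 10.8 and 17.3 CPM in aged libraries and at 34.1, 15.6 and 22.7 CPM in young libraries. Replicate 2 was the lowest of each group, and the log2 fold change was -0.48 ± 0.36 (SE; 95% interval -1.33 to 0.38; edgeR adjusted p = 0.822). Cyp2c68 stood at 13.5, 10.4 and 15.5 CPM in aged libraries and at 19.8, 11.4 and 17.96 CPM in young libraries, with a log2 fold change of -0.31 ± 0.22 (SE; edgeR adjusted p = 0.799). Of its stretches of 75 bases, 28.5% also occur in transcripts of other P450 genes, so the split of reads between copies is uncertain for it. Shares of 11.4% and 10.8% were found for Cyp2c65 and its neighbour Cyp2c66.

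Cyp2 genes with a role of their own were likewise not called. Cyp2r1, the vitamin D 25-hydroxylase, stood at 1.03, 1.14 and 0.963 CPM in aged libraries and at 0.728, 0.981 and 0.888 CPM in young libraries, with a log2 fold change of 0.27 ± 0.24 (SE; edgeR adjusted p = 0.845). Cyp2e1, the ethanol-oxidising P450, stood at 8.81, 7.83 and 15.1 CPM in aged libraries and at 16.2, 7.39 and 11.7 CPM in young libraries, with a log2 fold change of -0.15 ± 0.33 (SE; edgeR adjusted p = 0.960). In both genes the groups overlapped. Cyp2u1, whose human counterpart hydroxylates long fatty acids, stood at 5.01, 4.47 and 4.83 CPM in aged libraries and at 3.98, 5.12 and 3.70 CPM in young libraries, with a log2 fold change of 0.16 ± 0.17 (SE; edgeR adjusted p = 0.880). Cyp2f2, known for naphthalene activation in the airway, stood at 0.444, 0.197 and 0.463 CPM in aged libraries and at 0.682, 0.389 and 0.192 CPM in young libraries, with a log2 fold change of -0.18 ± 0.49 (SE; edgeR adjusted p = 0.969). The exons of Cyp2u1, Cyp2f2, Cyp2s1, Cyp2c29 and Cyp4v3 overlap other annotated genes, and whether the counting used strand is not given in the sources used here.

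All 4 tested Cyp3a genes lay below 0, with log2 fold changes between -1.08 and -0.33 and edgeR adjusted p between 0.626 and 0.782. Cyp3a13, a Cyp3a gene of the gut, stood at 74.5, 51.6 and 59.9 CPM in aged libraries and at 91.6, 63.8 and 79.1 CPM in young libraries. The highest aged value lay between the young ones, and the log2 fold change was -0.33 ± 0.16 (SE; 95% interval -0.70 to 0.03; edgeR adjusted p = 0.626). Cyp3a25 stood at 17.4, 7.35 and 11.9 CPM in aged libraries and at 29.5, 10.6 and 26.4 CPM in young libraries, with a log2 fold change of -0.86 ± 0.46 (SE; 95% interval -1.97 to 0.26; edgeR adjusted p = 0.7). Young replicate 2 lay below 2 of the 3 aged values. Cyp3a11, the pregnane X receptor target whose promoter is printed above and which was chosen for description after its values were seen, stood at 31.0, 10.4 and 12.7 CPM in aged libraries and at 63.6, 19.8 and 31.1 CPM in young libraries. Its values ranged widely within both groups, and the log2 fold change was -1.08 ± 0.59 (SE; 95% interval -2.55 to 0.39; edgeR adjusted p = 0.717). The 7 Cyp3a genes summed to 123.2, 69.6 and 85.2 CPM in aged libraries and to 185.4, 94.7 and 137.5 CPM in young libraries, so the groups overlapped. Cyp3a25 and Cyp3a59 have 12.3% and 13.2% of their 75-base stretches in transcripts of other P450 genes.

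Among the family 4 genes taken here, the Cyp4f array held most of the counts. Cyp4f14 stood at 233.6, 166.9 and 224.9 CPM in aged libraries and at 234.4, 188.3 and 217.3 CPM in young libraries. The groups overlapped, and the log2 fold change was -0.03 ± 0.13 (SE; edgeR adjusted p = 0.97), with a 95% interval of 0.793 to 1.204 in linear fold. Cyp4f40 stood at 60.3, 52.4 and 67.7 CPM in aged libraries and at 67.0, 67.1 and 70.5 CPM in young libraries, with a log2 fold change of -0.18 ± 0.10 (SE; edgeR adjusted p = 0.666). Cyp4f16 stood at 60.5, 49.9 and 54.3 CPM in aged libraries and at 51.3, 48.8 and 56.0 CPM in young libraries, with a log2 fold change of 0.08 ± 0.09 (SE; edgeR adjusted p = 0.892). The narrow 95% interval of Cyp4f16, 0.912 to 1.22 in linear fold, set bounds on any difference with age. Of its 75-base stretches, 10.1% occur in transcripts of other P450 genes. Cyp4v3, the mouse counterpart of the human fatty acid hydroxylase CYP4V2, stood at 76.7, 62.0 and 95.2 CPM in aged libraries and at 106.4, 65.7 and 86.5 CPM in young libraries, with a log2 fold change of -0.14 ± 0.20 (SE; edgeR adjusted p = 0.913).

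In 2 of the 10 tested genes of family 4, Cyp4b1 and Cyp4f39, the age groups did not overlap. Of all genes, 7.49% had all aged libraries below all young ones and 6.29% had them all above. With upper-quartile factors in place of TMM, Cyp4f39 overlapped, which left 5 non-overlapping P450 genes in place of 6. Cyp4b1, which oxidises fatty acids and aromatic amines, stood at 13.5, 11.2 and 14.7 CPM in aged libraries and at 16.1, 15.96 and 17 CPM in young libraries. The aged values were all lower, and the log2 fold change was -0.32 ± 0.12 (SE; 95% interval -0.59 to -0.04; edgeR adjusted p = 0.403). Cyp4f39, the mouse counterpart of a human hydroxylase of very long skin fatty acids, stood at 0.570, 0.746 and 0.695 CPM in aged libraries and at 0.569, 0.237 and 0.240 CPM in young libraries. Aged replicate 1 and young replicate 1 were nearly equal, and the log2 fold change was 0.96 ± 0.39 (SE; 95% interval 0.08 to 1.84; edgeR adjusted p = 0.465). Cyp4a32, of the fatty acid hydroxylase subfamily driven by the receptor PPAR alpha, stood at 1.14, 0.811 and 1.39 CPM in aged libraries and at 0.751, 0.271 and 1.25 CPM in young libraries. Its groups overlapped (log2 fold change 0.60 ± 0.48, SE; edgeR adjusted p = 0.824), and 28% of its 75-base stretches occur in transcripts of other P450 genes.

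The tested genes not given in full, Cyp2c55, Cyp2c66, Cyp2c70, Cyp2d22, Cyp2j9, Cyp3a59, Cyp4f13, Cyp4f15 and Cyp4f17, all had overlapping age groups. Their log2 fold changes lay between -0.69 for Cyp2c55 and 0.06 for Cyp4f17, with edgeR adjusted p from 0.572 for Cyp2d22 to 0.989 for Cyp4f15.

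The genes that P450 enzymes depend on were measured beside them, and 0 were called in any of these lists (edgeR quasi-likelihood test). Of the electron donors 7 of 7 were tested, with a median log2 fold change of 0.00. The most abundant were Cyb5b, a cytochrome b5, at 495.9, 448.7 and 546.9 CPM in aged libraries and 493, 474.1 and 476.8 CPM in young libraries, and Cyb5r3, the reductase of cytochrome b5, at 388, 304.9 and 418.9 CPM in aged libraries and 402.1, 280.9 and 398.3 CPM in young libraries. Of the haem supply genes 12 of 12 were tested, with a median of -0.04. Alas1, the first enzyme of haem synthesis, stood at 171.1, 158.2 and 183.3 CPM in aged libraries and 166.6, 168.1 and 169.7 CPM in young libraries. Alad, the enzyme after it, stood at 95.3, 91.4 and 94.7 CPM in aged libraries and 90.7, 84.3 and 95.2 CPM in young libraries. Values of both haem genes overlapped between ages.

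Among 17 regulators 16 were tested, with a median log2 fold change of -0.00. Hnf4a, which encodes the factor whose letters are capitalised above, stood at 1584, 1672 and 1782 CPM in aged libraries and at 1615, 1701 and 1479 CPM in young libraries (log2 fold change 0.07 ± 0.09, SE; edgeR adjusted p = 0.891). Vdr, the vitamin D receptor, stood at 924.1, 866.7 and 982 CPM in aged libraries and at 1034, 728.9 and 1002 CPM in young libraries (log2 fold change 0.00 ± 0.13, SE; edgeR adjusted p = 0.996). Of 9 genes acting on epoxides and eicosanoids 7 were tested, with a median of -0.03. Ephx2, the soluble epoxide hydrolase, stood at 147.5, 107.7 and 141.2 CPM in aged libraries and at 171.2, 121.8 and 143.2 CPM in young libraries (edgeR adjusted p = 0.880). Ephx1, the microsomal epoxide hydrolase, stood at 26.9, 28.4 and 38.6 CPM in aged libraries and at 50.5, 44.5 and 43.3 CPM in young libraries. All aged values of Ephx1 were lower, with a log2 fold change of -0.56 ± 0.14 (SE; edgeR adjusted p = 0.117). The lowest adjusted p of that list belonged to the arachidonate lipoxygenase gene Alox15, named after its values were seen, which stood at 1.31, 1.43 and 0.660 CPM in aged libraries and at 0.273, 0.271 and 0.432 CPM in young libraries. All its aged values were higher, with a log2 fold change of 1.80 ± 0.38 (SE; edgeR adjusted p = 0.0642).

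P450 genes of other families were set beside these, and of 21 the 7 tested had a median log2 fold change of 0.01. Cyp51, the sterol demethylase of cholesterol synthesis, stood at 105, 106.7 and 109.8 CPM in aged libraries and at 103.9, 114.8 and 101.1 CPM in young libraries (edgeR adjusted p = 0.989). Cyp39a1, an oxysterol hydroxylase, stood at 23.2, 22.4 and 24.5 CPM in aged libraries and at 27.8, 19.6 and 24.6 CPM in young libraries (edgeR adjusted p = 0.972).

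Of the cell type markers, 0 of 15 for absorptive enterocytes were called. Their median log2 fold change was -0.06, with values from -1.09 to 0.18 and 10 of 15 below 0. The 10 crypt and dividing cell markers also gave 0 calls, with a median log2 fold change of 0.03. Of 8 secretory cell markers 1 was called, the goblet peptide gene Tff3, which was lower in aged libraries (edgeR adjusted p = 0.0498), where 0.784% of all genes were called lower. The log2 fold changes of that list had a median of -0.37 and ran from -0.92 to 0.23. Of 7 duodenal markers 1 was called, the incretin hormone gene Gip, which was lower (edgeR adjusted p = 0.0285). That list had a median of -0.26 and ran from -0.98 to 0.26, with 4 of 7 below 0. In these 4, Gip, Cck, Cybrd1 and Slc40a1, all aged libraries lay below all young ones, where 7.49% of all genes did. The 7 ileal markers also leaned lower, with 0 called, a median of -0.13 and 5 of 7 below 0. Of the 7 villus top markers and the 4 tested liver markers 0 were called, with medians of 0.11 and 0.27. Leukocyte markers summed to 13.7 to 20.9 CPM in aged libraries and 13.4 to 21.2 CPM in young libraries, and 7 markers of fibroblasts, muscle and endothelium to 1.21 to 1.58 CPM in aged libraries and 0.812 to 1.61 CPM in young libraries, with Cdh5 at 0. The 5 pancreatic acinar markers summed to 9.89 to 11.6 CPM in aged libraries and 5.07 to 7.59 CPM in young libraries, and Prss2 and Cpa1 were at 0 in all of them. Nearly all of that sum was Cela1, at 11.4, 9.61 and 11.3 CPM in aged libraries and 6.30, 4.87 and 7.47 CPM in young libraries (log2 fold change 0.80 ± 0.17, SE; edgeR adjusted p = 0.0643). The part of goblet, enteroendocrine or acinar content, or of the position along the gut, in the P450 values was not tested.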

How the data were processed

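Per the labels' protocols, poly(A) RNA entered a stranded library kit. Gene values are raw counts as deposited by the authors, whole numbers with unequal totals and no normalisation. The submitters' processing notes name GRCm38 and, with no role or order, cutadapt 2.5, deepTools 3.3.1, DESeq2 1.28.1, FastQC 0.11.8, featureCounts 1.6.4, HISAT2 2.1.0, MultiQC 1.7, Picard, SAMtools 1.9, STAR, StringTie 2.0 and Trim Galore 0.6.4. The strand setting of the counting is not given in the sources used here.

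Genes passing filterByExpr (minimum count 10) were tested with edgeR 4.0.16 (R 4.3.3), using TMM factors, the robust quasi-likelihood fit with age as its term, all 6 libraries and Benjamini-Hochberg adjustment over 14923 genes. The SE is the size of the log2 fold change over the square root of F. CPM use TMM factors. Exon lengths, positions and shared 75-base stretches came from GENCODE M21, which held 45229 of the gene IDs, lacked 849 and held all 72 P450 genes. It lists Cyp2c44 under another name. Shared stretches replaced a planned comparison of protein sequences, for which no sequences were used here. Promoter windows are from RefSeq, and their letters were chosen after windows had been seen. The within-group chi-square per gene between libraries was 27.0 to 69.7, far above counting noise alone, so none was a second sequencing of another library. This value cannot tell separate mice from separate libraries of the same mouse. The method was checked on simulated counts.

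Values in every library are given for the 12 most abundant genes per length, up to 12 genes with no overlap between ages, the most abundant tested gene of each subfamily, Cyp1a1, Cyp1a2, Cyp1b1, Cyp2r1 and Cyp2e1, and the 2 most abundant genes of each uncalled partner list. The genes and lists were chosen with earlier results of these data known. Alternatives were DESeq2 1.42.0, limma-voom (limma 3.58.1), other factors and filters, and each library left out. Leaving out both libraries numbered 2 was added after seeing the data. Organoid, single-cell and chromatin data were not used here.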

Additional observations from a re-analysis of the deposited data

How the results depend on the processing

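No P450 gene was called higher under any of the 13 alternatives. Without single libraries 0 to 1 were called lower, namely Cyp2w1 without aged replicate 3 and Cyp2c44 without young replicate 2. With DESeq2 it was 1 (Cyp2w1), and with no filter on low counts 2 (Cyp2w1 and Cyp2c44). limma-voom, RLE and upper-quartile factors, the filter of 1 CPM in 3 libraries and leaving out both libraries numbered 2 gave 0. Over all genes, 203 were called higher and 286 lower (1.67% of 17108) with DESeq2, and 168 higher and 245 lower (0.981% of 24973) with no filter. There were 67 lower with the 1 CPM filter, and 21 higher and 27 lower without both libraries numbered 2. Without single libraries it was 35 to 135 higher and 30 to 135 lower. With no filter 56 of the 72 P450 genes were tested, and with the 1 CPM filter 25.

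Log2 fold changes near 0 turned sign under some alternatives, and the cause was not tested. Cyp1a1 was -0.0696 with limma-voom. Cyp2f2 was 0.0381 and Cyp4f14 0.0157 without both libraries numbered 2. Without single libraries Cyp1a1 was between -0.54 and 0.38, Cyp2c65 between -0.13 and 0.31, Cyp2e1 between -0.50 and 0.16, Cyp2f2 between -0.51 and 0.31, Cyp4f14 between -0.12 and 0.10 and Cyp4v3 between -0.32 and 0.036. In 13 further named genes leaving out 1 library moved the log2 fold change by over 1.5 times with its sign kept, as in Cyp2b10 (-0.77 to -0.14), Cyp2d26 (-0.40 to -0.03), Cyp4a32 (0.16 to 1.17) and Cyp2c29 (-1.78 to -0.81), none of which was called. Of the values of named P450 genes under the alternatives, 285 kept their direction and their side of the threshold, 15 turned sign and 5 newly passed the threshold.

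No paired analysis was possible because the labels give no replicate numbers. With 3 mice of each age, the median standard error over the 34 tested P450 genes was 0.30 on the log2 scale.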
